A study of Mus musculus with 2 samples.

Results

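Nanog, Esrrb, Tbx3, Tfcp2l1, Nr0b1, Tcl1, Prdm14 and Zfp42 are factors of the naive pluripotency network, and they were followed here in single-cell RNA-sequencing of telomerase-deficient mouse embryonic stem cells (mESCs). The 8 genes were chosen as a group with earlier results of these data known. Each was matched to its column by symbol, and all 8 were found among the 38458 gene columns of the count tables. The cells were the Terc-/- line DKO741, made from E14 mESCs by replacing both alleles of Terc, which encodes the RNA template of telomerase. PD100 cells (passage 100 in the labels) were taken before alternative lengthening of telomeres (ALT), the telomerase-independent way of keeping telomeres, and PD800 cells (passage 800) were taken from the survivor culture of the same line. Both groups therefore lacked Terc, both were grown on feeder fibroblasts for stock keeping and without feeders for experiments, and each was 1 inDrops library, a droplet method that counts captured transcripts by unique molecular identifiers (UMIs).

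Naive pluripotency is the state of the preimplantation epiblast, kept in culture by leukaemia inhibitory factor and serum or by inhibitors. In that state Nanog, Esrrb, Tbx3, Tfcp2l1 and Klf4 support one another's transcription beside the core factors Oct4 (Pou5f1) and Sox2, and the factors are switched off as cells move towards the primed state, in which genes such as Otx2, Pou3f1, Fgf5 and Dnmt3b are raised. In serum cultures Nanog, Esrrb, Tbx3 and Zfp42 are known for uneven expression between cells of the same dish, which is the reason for looking at them cell by cell.

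The cell filter of the study, at least 1000 UMIs and at most 20% mitochondrial UMIs, left 814 PD100 cells with 1826233 UMIs and 900 PD800 cells with 2580963 UMIs. Median depths were 2151 and 2701.5 UMIs per cell, and median mitochondrial shares were 1.23% and 4.42%. No Terc UMI was found in either library. The floor given to a count of 0 was 3 counts, which is 1.64 CPM in PD100 and 1.16 in PD800. CPM are counts per 1000000, the UMIs of a gene scaled to the library's total. Whether the method captures Terc RNA was not tested, so these counts of 0 are not read as a measure of its loss. All 12 embryonic stem cell markers of a fixed list were detected in both libraries. Among the PD100 cells, 38 formed a cluster with 16 of 17 extraembryonic endoderm markers at 0.1 UMI per cell or more, called endoderm-like here, and no PD800 cell fell in it. The summed endoderm markers stood at 1176 CPM in PD100, at 367 without those 38 cells, and at 159 in PD800, where Gata6, Srgn and Ctsh were at 0. Feeder fibroblast markers summed to 53.1 CPM in PD100, with Col1a1 and Lum at 0, and to 162 in PD800, with Dcn at 0, and their part in the results was not tested. The barcodes kept as cells shared 8 names between the libraries. With 1 library per time point there is no replicate error and no test, intervals are at 95% and cover counting error only, and time point and library cannot be told apart.

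Start sites of 6 of the 8 genes (Nanog, Esrrb, Tfcp2l1, Nr0b1, Tcl1 and Zfp42) were matched in RefSeq promoter sequences of GRCm38.p6. The 250 bases before the start are shown for Nanog and Esrrb, around which the group is named, and for Zfp42, whose behaviour differed from theirs, with motif matches in capitals. Nanog lies on chr6 (plus strand, promoter chr6:122707239-122707488, the first of 2 starts), Esrrb on chr12 (plus strand, chr12:86360867-86361116, the first of 2 starts) and Zfp42 on chr8 (minus strand, chr8:43307010-43307259).
Nanog: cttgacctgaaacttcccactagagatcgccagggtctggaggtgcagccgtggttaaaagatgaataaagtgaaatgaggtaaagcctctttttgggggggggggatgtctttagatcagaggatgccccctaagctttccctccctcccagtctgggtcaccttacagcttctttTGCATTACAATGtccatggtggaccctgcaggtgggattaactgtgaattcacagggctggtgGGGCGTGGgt
Esrrb: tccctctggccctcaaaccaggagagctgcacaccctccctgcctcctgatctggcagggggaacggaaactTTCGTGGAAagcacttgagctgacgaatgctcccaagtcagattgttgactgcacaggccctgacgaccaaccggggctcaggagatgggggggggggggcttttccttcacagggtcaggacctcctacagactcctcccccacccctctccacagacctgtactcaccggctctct
Zfp42: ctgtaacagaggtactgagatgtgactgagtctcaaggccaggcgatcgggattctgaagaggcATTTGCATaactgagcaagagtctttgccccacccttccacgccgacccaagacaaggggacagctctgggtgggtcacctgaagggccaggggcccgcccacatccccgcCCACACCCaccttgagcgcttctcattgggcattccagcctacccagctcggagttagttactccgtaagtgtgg
In the Nanog promoter the capitals mark a match to the composite Oct4-Sox2 element, searched on both strands with 2 positions left free, at bases -73 to -62 from the start. Such a match was found in 40 of 32851 promoters (0.122%), each searched over 300 bases from 250 before to 50 after its start. A second run of capitals, at -10 to -3, matches GGGNGTGG, the letters of a Klf site, which 17.6% of promoters hold, and another lies past the start at 24 to 31. Counted from the second Nanog start, the Oct4-Sox2 match is at -149 to -138 and the Klf matches are at -86 to -79 and -52 to -45. The first Esrrb promoter held TTCGTGGAA at -178 to -170, a match to the STAT palindrome TTCNNNGAA that 8.30% of promoters hold. The window of the second Esrrb start held no match to any of the motifs searched. In the Zfp42 promoter ATTTGCAT at -186 to -179 is the octamer ATGCAAAT read on the other strand, found in 1.74% of promoters, and CCACACCC at -75 to -68 is a Klf match. Tfcp2l1 had 2 Klf matches and the windows of Tcl1 and Nr0b1 had no match to these motifs or to AAGGTCA (Esrrb), CTTTGAT (Tcf) and AACAAAG (Sox). Among promoters of genes with at least 50 UMIs in the summed libraries, 23.1% held a Klf match and 6.41% a STAT match. The octamer was found in 1.11% of them and the Oct4-Sox2 element in 0.0594%. The matches describe the letters of these windows, and binding was not measured.

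Levels of 6 of the 8 factors were higher in PD800 than in PD100, Zfp42 was slightly lower in the plain ratio and slightly higher relative to the median gene, and Prdm14 was too rare to place. Nanog, Esrrb and Tbx3 were at least 2-fold higher. For comparison, of all 6984 genes that reached 50 UMIs when the libraries were summed, 9.22% were higher by 2-fold or more in PD800 and 16.9% lower by as much. The factors that could be set against this were 7, since Prdm14 had fewer than 50 UMIs, and 3 were higher, 0 lower and 4 within 2-fold. The median log2 ratio of the 7 was 0.68, where the median of all 6984 genes was -0.34, so that relative to the median gene the factors stood at 1.02. On that relative scale 4 of 7 were at least 2-fold higher and 0 lower, against 13.9% and 7.79% of all genes. Because the factors were chosen with earlier results of these data known, these shares describe them and do not test them as a set. Levels are given as CPM and were not ranked between genes.

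Nanog, the homeodomain factor on chr6:122707489-122714633, had 130 UMIs in PD100 and 368 in PD800. These are levels of 71.2 CPM (59.5 to 84.5) and 143 CPM (128 to 158), and the intervals lie apart. The ratio was 2.003-fold (1.64 to 2.47), or 1.00 on the log2 scale (0.71 to 1.30). Nanog therefore sat at the 2-fold line itself, and its log2 ratio was 0.99 without called doublets and 0.94 without the endoderm-like cells. Counted from the highest ratio its rank was 643 of 6984 tested genes.

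Esrrb, an orphan nuclear receptor that binds the regulatory regions of many naive genes, lies on chr12:86361117-86521628. It went from 57 UMIs and 31.2 CPM (23.6 to 40.4) in PD100 to 230 UMIs and 89.1 CPM (78.0 to 101) in PD800. The difference of 2.86-fold (2.13 to 3.89) was the largest of the 8 in the plain ratios, with a rank of 399 among the 6984 genes. In the counting interval its whole range lay above 2-fold, which held for no other member. Esrrb was also the single member past 2-fold when only cells with at least 2000 UMIs were used, where its log2 ratio was 1.66.

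Tbx3, a T-box factor on chr5:119670669-119684724, had 46 UMIs in PD100 and 145 in PD800. Its level went from 25.2 CPM (18.4 to 33.6) to 56.2 CPM (47.4 to 66.1), a ratio of 2.23-fold (1.59 to 3.18). In cells with at least 2000 UMIs its log2 ratio was 0.87, which is under 2-fold. The antisense genes Tbx3os1 and Tbx3os2 had columns of their own, with 2 and 1 UMIs in PD100 and 4 and 2 in PD800.

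Tfcp2l1, a CP2-family factor acting downstream of STAT3 signalling, is on chr1:118627945-118685168. It was counted 30 times in PD100 and 68 times in PD800, at 16.4 CPM (11.1 to 23.5) and 26.3 CPM (20.5 to 33.4). These intervals overlap, and the interval of the ratio, 1.60-fold (1.03 to 2.55), only just leaves 1 out.

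Nr0b1, also called Dax1, is an orphan nuclear receptor family member on chrX:86191764-86195947 that binds Oct4 and limits its activity. Its 181 PD100 UMIs gave 99.1 CPM (85.2 to 115) and its 381 PD800 UMIs 148 CPM (133 to 163). The ratio of 1.49-fold (1.24 to 1.79) was the smallest of the 6 factors that were higher.

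Tcl1, a coactivator of the kinase Akt and not a DNA-binding factor, is on chr12:105216750-105222793. With 112 UMIs in PD100 and 245 in PD800, it stood at 61.3 CPM (50.5 to 73.8) and 94.9 CPM (83.4 to 108), which is 1.55-fold (1.23 to 1.95). Its near relatives hardly had UMIs of their own, with 1 for Tcl1b1 in each library and 0 for Tcl1b2, Tcl1b3, Tcl1b4 and Tcl1b5.

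Prdm14, a PR-domain protein that represses Fgf signalling and DNA methyltransferase genes, lies on chr1:13113457-13127163. It had 11 UMIs in 7 PD100 cells and 12 UMIs in 10 PD800 cells. The levels of 6.02 CPM (3.01 to 10.8) and 4.65 CPM (2.40 to 8.12) do not separate, and the interval of the ratio runs from 0.312-fold to 1.93-fold, so that a difference of the size seen for Nr0b1 or Tcl1 was not detectable at this depth.

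Zfp42, the zinc-finger gene also known as Rex1 and a common reporter of the naive state, is on chr8:43295063-43306980. It was counted 1038 times in PD100 and 1284 times in PD800. Its level was 568 CPM (534 to 604) in PD100 and 497 CPM (471 to 525) in PD800, and the intervals lie apart with PD800 the lower. The ratio was 0.875-fold (0.806 to 0.951), a log2 ratio of -0.19. Relative to the median gene the sign turned, to 0.15, so the direction for Zfp42 depends on the scaling.

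**Figure D1:**
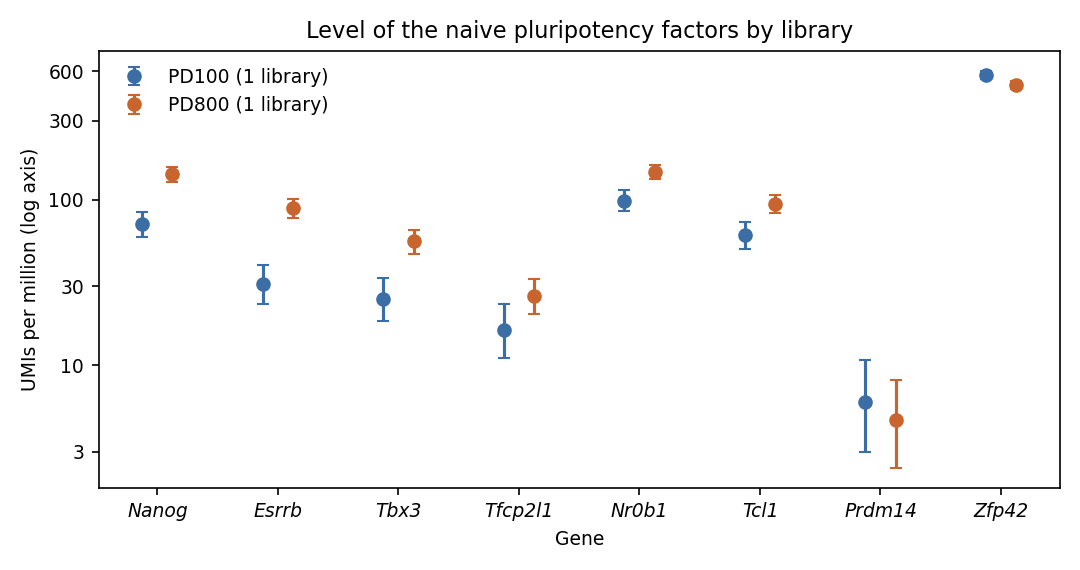
Level of each factor in CPM on a log axis, with 1 point per library and 95% Poisson intervals of the counts. PD800 points lie above PD100 points for Nanog, Esrrb, Tbx3, Tfcp2l1, Nr0b1 and Tcl1, the 2 Prdm14 intervals overlap, and Zfp42 is at 568 in PD100 and 497 in PD800.

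The differences could also be read within groups of cells by depth. The groups were cut within each library, with median depths of 1430, 2151 and 3030.5 UMIs in PD100 and 1594.5, 2698 and 4097 in PD800. Depth was therefore not matched between the libraries. In the shallow, middle and deep cells of PD100, cut into groups of about equal size, Nanog was at 60.2, 86.5 and 65.8 CPM, and in those of PD800 at 141, 151 and 138 CPM. Esrrb was at 41.9, 38.1 and 21.9 CPM against 90.3, 99.2 and 82.4 CPM. Tbx3 gave 23.6, 36.3 and 18.5 CPM against 73.5, 59.5 and 47.8 CPM. For each of Nanog, Esrrb and Tbx3 the lowest PD800 value lay above the highest PD100 value. The same held for Nr0b1, between 90.0 and 107 CPM in PD100 and between 136 and 167 CPM in PD800, but not for Tcl1, whose deep PD800 cells (80.9 CPM) were below the shallow PD100 cells (86.4 CPM), nor for Tfcp2l1, whose shallow PD800 cells (21.0 CPM) were below the deep PD100 cells (24.2 CPM). Groups of cells by mitochondrial share gave Nanog levels of 62.4 to 80.5 CPM in PD100 and 141 to 144 CPM in PD800. The mitochondrial share itself could not be matched between the libraries, since its median was 1.79% in the highest PD100 group and 3.45% in the lowest PD800 group, and its part in the differences was not tested.

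The factors were also compared between the cell clusters of a library, which were formed from all variable genes and are therefore given as a description. In PD800, clusters of 473 and 427 cells held Nanog at 138 and 148 CPM and Esrrb at 86.0 and 93.1 CPM. In PD100, clusters of 481 and 295 cells held Nanog at 83.8 (67.1 to 103) and 59.9 CPM (43.2 to 81.0), Esrrb at 26.0 (17.1 to 37.9) and 41.4 CPM (27.7 to 59.4), and Tbx3 at 30.8 (21.1 to 43.5) and 15.7 CPM (7.84 to 28.1). These intervals overlap, and Nanog and Esrrb were ordered oppositely. The 38 endoderm-like cells held all 8 factors together at 114 CPM (54.7 to 210), against 890 and 957 CPM in the other PD100 clusters. Their Zfp42 was at 45.7 CPM (12.4 to 117), and they had a single Nanog UMI. Tbx3 was not lower in them, at 34.2 CPM (7.06 to 100) from 3 UMIs, an interval that holds its values in the other PD100 clusters.

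Genes around each factor on its chromosome give a local background. The 50 tested genes nearest to Nanog had a median log2 ratio of 0.08, and 8 of them were higher than Nanog. For Esrrb the neighbours stood at 0.15, with 3 above it, and for Tbx3 at -0.39, again with 3 above it. Tfcp2l1 exceeded its neighbours by 1.22 on the log2 scale and Nr0b1 by 0.77. Tcl1 was the exception, since its neighbours towards the end of chromosome 12 had a median of 0.45 of their own and 17 of the 50 were above it, which leaves a difference of 0.18. Zfp42 was the reverse case. Its neighbours on chromosome 8 stood at -0.81, so that Zfp42, at -0.19, lay 0.62 above them although its own level was lower in PD800. Over the 393 tested genes of chromosome 8 the median was -0.87, so this low background was not particular to the genes around Zfp42. Whether copy number or another feature of these regions takes part was not tested.

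**Figure D2:**
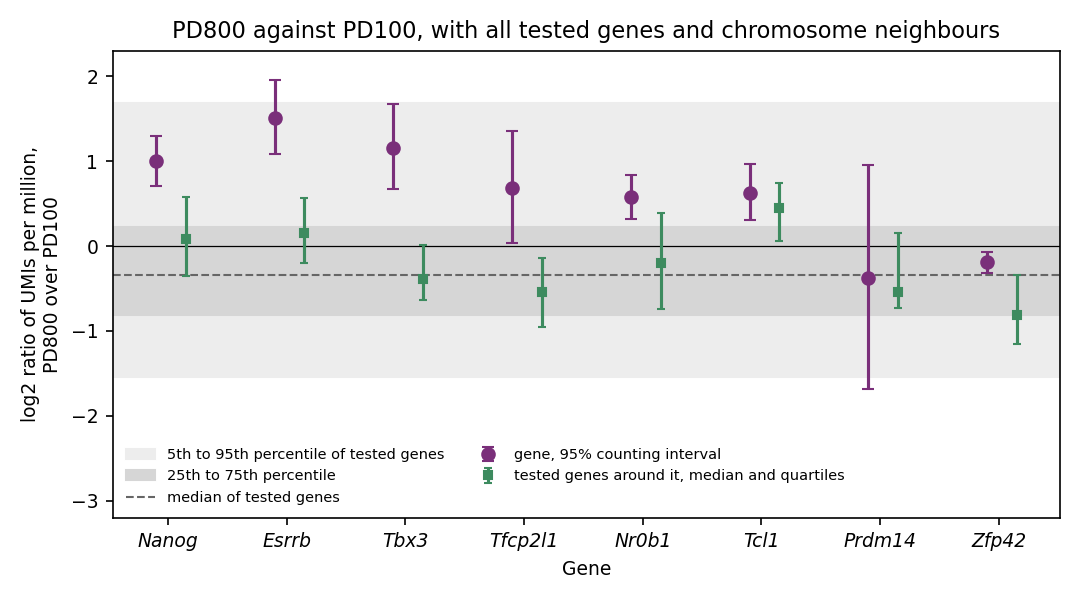
The log2 ratio of PD800 over PD100 for each factor with its 95% counting interval (circles), and the median and quartiles of the tested genes around it (squares). Grey bands and the dashed line give the percentiles and the median (-0.34) of all 6984 tested genes. Esrrb at 1.51, Tbx3 at 1.16 and Nanog at 1.00 are the highest, and Tcl1 lies within the quartiles of its neighbours.

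Many genes that were higher in PD800 carried a shared repeat in their transcripts, described by 148 sequences of 20 bases common to at least 2 of 4 strongly raised transcripts. Of 511 other tested genes with the repeat in sense, 52.1% were at least 2-fold higher, against 5.16% of 5660 genes without it. Transcripts of all 8 factors held 0 of the 148 sequences in sense, and Nanog held 63 in antisense, a class of 304 genes whose relative median was -0.08. Without the repeat genes, the share of all genes at least 2-fold higher was 5.47%, a background of genes that lack the repeat in sense as these factors do. The repeat was defined with the ratios known.

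The other genes of the network did not share one direction. Of 26 further naive network genes, 24 could be tested, of which 3 were at least 2-fold higher, 3 lower and 18 within 2-fold. Among all 6984 tested genes 9.22% were higher and 16.9% lower by as much. The median log2 ratio of the 24 was -0.07 (0.27 relative to the median gene). Those higher were Klf4 at 1.69 (1.41 to 1.98), Tet2, which oxidises methylated cytosine, at 1.73 (0.85 to 2.72), and Fbxo15 at 1.13 (0.66 to 1.62). Those lower were Dppa3 at -3.90 (-5.26 to -2.79), Klf2 at -1.27 (-1.47 to -1.07) and Stat3 at -1.01 (-1.41 to -0.62). Nanog, Esrrb and Tbx3 thus went the way of Klf4 and opposite to Klf2, although Klf2 and Klf4 are counted in the same network. The 3 core genes lay within 2-fold, with Pou5f1 at -0.35, Sox2 at 0.06 and Utf1 at -0.16. Of 18 primed and formative genes 12 could be tested, and 7 were at least 2-fold lower and 0 higher, with a median of -1.37. Relative to the median gene 6 were at least 2-fold lower and 0 higher, where 7.79% of all tested genes were lower. The 7 lower in the plain ratio were Lefty1 (-5.86), Lefty2 (-5.72), Nodal (-2.37), Etv4 (-2.27), Dnmt3b (-2.24), Otx2 (-1.74) and Dnmt3a (-1.01). Lefty1, Lefty2 and Nodal belong to Nodal signalling, which is active in naive cultures too.

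To compare cells, each cell was thinned to 1000 UMIs drawn at random. At this equal depth Nanog was seen in 50 of 814 PD100 cells (6.14%, exact binomial interval 4.59 to 8.02) and in 94 of 900 PD800 cells (10.4%, 8.52 to 12.6). Esrrb was seen in 25 cells (3.07%, 1.997 to 4.50) and 70 cells (7.78%, 6.11 to 9.72). For both genes the intervals lie apart. Nr0b1 was seen in 6.88% and 12.1% of cells, Tcl1 in 5.41% and 7.89%, Tbx3 in 2.70% and 4.67%, and Tfcp2l1 in 0.983% and 2.56%. Zfp42 was seen in 293 PD100 cells (36.0%) and 318 PD800 cells (35.3%), and Prdm14 in 4 cells of each library. Before thinning the Nanog shares were 10.9% and 26.1%, the Esrrb shares 5.53% and 19.0%, and the Zfp42 shares 50.7% and 64.2%, with the deeper PD800 library above in each.

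Free RNA in droplets can add to such shares, and it was not measured here. The endoderm-like cells were used as a rough guide, and whether their UMIs came from free RNA or from expression was not tested. In the 38 endoderm-like cells, whose median depth was 2314 UMIs, Nanog, Esrrb, Tbx3 and Nr0b1 were each seen in 1 cell at equal depth (2.63%, 0.0666 to 13.8), and Tfcp2l1, Tcl1, Prdm14 and Zfp42 in 0. The upper limits, 13.8% for 1 cell and 9.25% for 0, lie above the equal-depth shares of the 7 factors other than Zfp42 in both libraries. These shares are therefore not read as shares of expressing cells. The limits are wide because they rest on 38 cells, all from PD100, and PD800 had no such guide of its own. Zfp42 in PD100 lay above its limit, since before thinning it was seen in 4 of the 38 cells (10.5%, 2.94 to 24.8) and in 52.7% of the other PD100 cells.

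**Figure D3:**
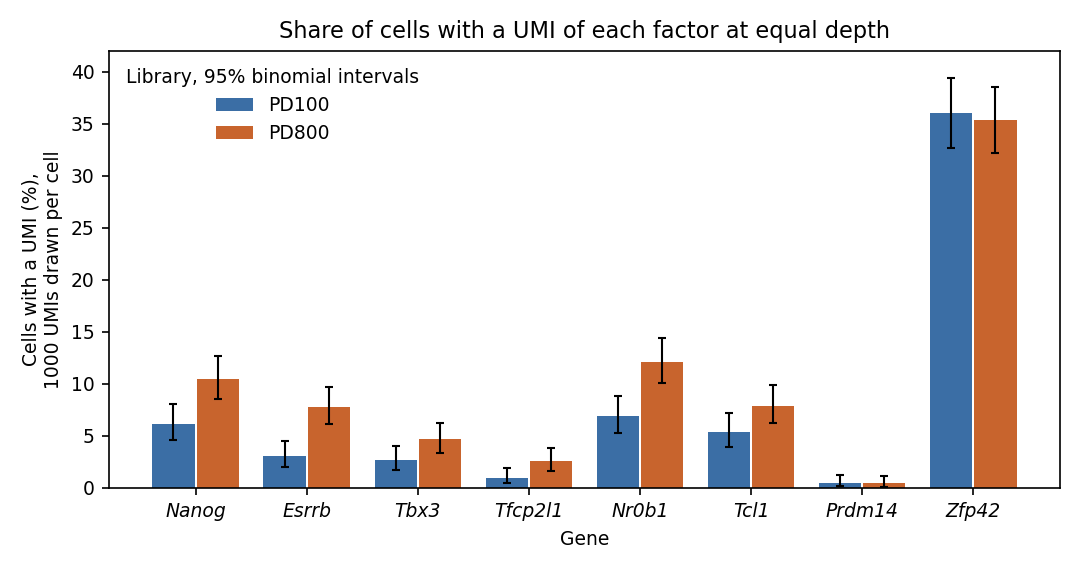
Share of cells with at least 1 UMI of each factor after 1000 UMIs were drawn per cell, with exact 95% binomial intervals. The PD800 bars are above the PD100 bars for 6 factors, from 10.4% against 6.14% for Nanog to 2.56% against 0.983% for Tfcp2l1, and Zfp42 is at 36.0% and 35.3%.

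Counted over the group, 383 PD100 cells (47.1%, 43.6 to 50.5) and 528 PD800 cells (58.7%, 55.4 to 61.9) had a UMI of at least 1 factor. Leaving Zfp42 out, the shares were 22.1% (19.3 to 25.1) and 36.8% (33.6 to 40.0). At this depth the difference between the libraries was thus seen for the factors other than Zfp42, which on its own was at 36.0% and 35.3%. In a second draw Zfp42 was at 35.9% in PD100 and 37.1% in PD800. The share expected over all possible draws at this depth was 34.8% in PD100 and 36.3% in PD800, so the order of the first draw was not kept. In cells with at least 2000 UMIs, thinned to 2000, Zfp42 was at 50.1% and 59.8%, with PD800 again the higher. Among 8 alternative settings PD800 was the higher in 5, so the order of the Zfp42 shares depended on the draw and the cells used. At most 4 of the 8 factors were seen in the same thinned cell.

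Although Zfp42 was at a similar level in both cultures, it was spread differently over their cells. In thinned PD100 cells its variance was 1.72 times its mean, and in PD800 cells 1.29 times. Counts drawn at a single rate in every cell would give a value near 1. At such a rate Zfp42 would have been seen in 44.7% of PD100 cells, where 36.0% had it, and in 38.7% of PD800 cells, where 35.3% had it. In full-depth cells with their own depths taken into account, 69.2% of PD100 cells were due to have a Zfp42 UMI and 50.7% had one. The corresponding PD800 shares were 71.6% and 64.2%. Leaving out the endoderm-like cells hardly moved the PD100 values, which became 70.6% and 52.7%. A second draw of UMIs gave ratios of variance to mean of 1.61 and 1.20. At the upper end, 49 PD100 cells with 5 or more Zfp42 UMIs held 325 of its 1038 UMIs, and 45 such PD800 cells held 272 of 1284. The other 7 factors had ratios of 0.974 to 1.40, too sparse for a comparison, with Nanog, Tbx3 and Nr0b1 lower in PD100 in the first draw. Some naive network genes outside the group also had higher ratios in PD100. These were 4.38 against 2.20 for Dppa5a, 1.59 against 1.13 for Klf5 and 1.48 against 1.29 for Klf2. A higher ratio in PD100 was therefore not particular to Zfp42. For Nanog, 10.9% of full-depth PD100 cells had a UMI where 14.6% were due, and 26.1% of PD800 cells where 32.5% were due. Nr0b1 was seen in 14.4% and 25.8% of cells where 19.7% and 33.4% were due.

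**Figure D4:**
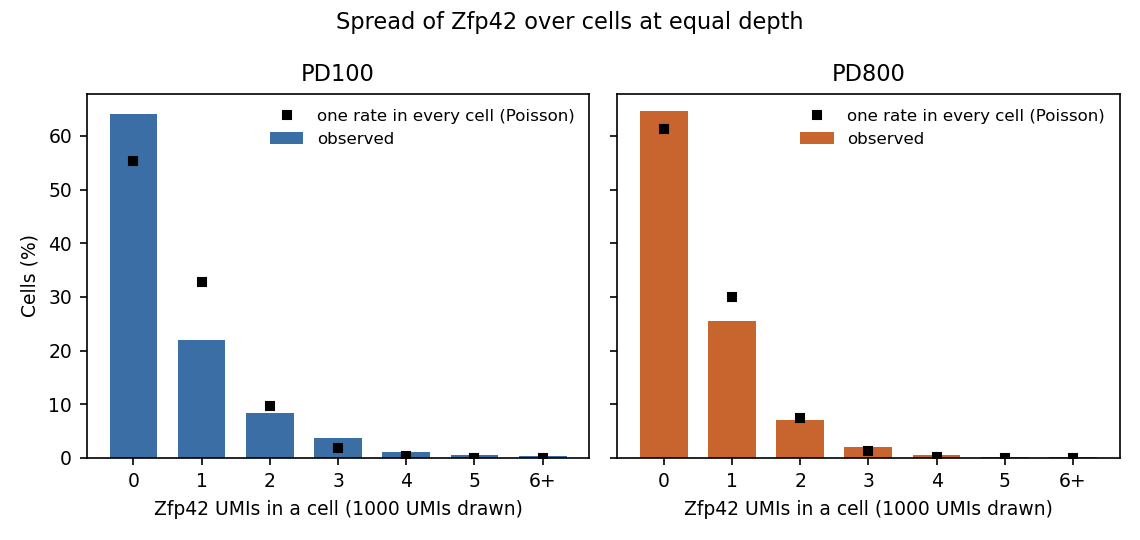
Share of cells (%) by the number of Zfp42 UMIs among 1000 UMIs drawn per cell, for 814 PD100 and 900 PD800 cells. Bars are observed and squares are a Poisson distribution with the same mean. PD100 has 64.0% of cells at 0 where the Poisson gives 55.3%, and PD800 has 64.7% where it gives 61.3%.

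The uneven Zfp42 signal of PD100 went along with the other factors. Thinned cells were split into those with and without a Zfp42 UMI, leaving out the endoderm-like cells, a split chosen after the spread of Zfp42 had been seen. In PD100 the 7 other factors together were at 406 CPM in 293 cells with Zfp42 (119 UMIs) and at 251 CPM in 483 cells without it (121 UMIs). The log2 ratio was 0.70 (0.32 to 1.08), and 0.89 (0.53 to 1.25) in the second draw. In PD800 they were at 560 CPM in 318 cells with Zfp42 and 519 CPM in 582 cells without, a log2 ratio of 0.11 (-0.16 to 0.38), and 0.02 in the second draw. Nanog alone was at 92.2 and 58.0 CPM in the PD100 cells, and at 129 CPM in both kinds of PD800 cell. The interval for Nanog in PD100 includes 0 in the first draw (-0.15 to 1.49) and not in the second (0.65 to 2.29), so single factors are at the edge of what these counts resolve.

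Other lists differed between the same PD100 cells. The naive network genes other than Dppa5a, which was left out because it makes up most of their UMIs, were higher in cells with Zfp42 by 0.29 (0.17 to 0.40), and by 0.20 in the second draw. Of these 25 genes 19 were above 0 and 6 below, and in the second draw 16 and 8. Klf4 at 1.14 (0.27 to 2.03), Fgf4 at 1.72 (0.42 to 3.16) and Klf2 at 0.53 (0.14 to 0.92) had intervals above 0 in both draws, as did Tdh and Mybl2. Dppa3 at -0.96 (-2.23 to 0.15), Sall4 at -0.48 and Stat3 at -0.41 lay below 0, with intervals that include it, and Tdgf1 was at -0.02 in the first draw and at -0.29 (-0.58 to -0.01) in the second. The primed and formative genes were at 782 CPM in cells with Zfp42 and 990 CPM in cells without, a log2 ratio of -0.34 (-0.57 to -0.11), and -0.24 in the second draw. Of the 15 primed genes with a UMI in both kinds of cell, 10 were below 0 and 5 above, in each draw. Lefty1 had 39 UMIs in cells with Zfp42 and 100 in cells without, a log2 ratio of -0.63 (-1.21 to -0.09). In the second draw it had 43 and 97, at -0.43 (-0.99 to 0.10). Lefty2 had 24 and 61, at -0.62 (-1.37 to 0.08), but 40 and 59 in the second draw, where its sign turned to 0.18 (-0.44 to 0.78). Without Lefty1 and Lefty2 the list was at -0.21 (-0.49 to 0.07), an interval that includes 0. Pou3f1, which encodes the formative factor Oct6, had 3 and 22 UMIs, and 0 and 14 in the second draw, while Etv5 and Spry4 were above 0 in the first draw, at 0.54 and 0.56. The 3 core genes stood at 1751 and 1770 CPM, a log2 ratio of -0.01 (-0.17 to 0.15). In PD800 the intervals of the naive, core and primed lists all included 0, at 0.09, 0.09 and 0.16, and the primed list was at -0.28 in the second draw.

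**Figure D5:**
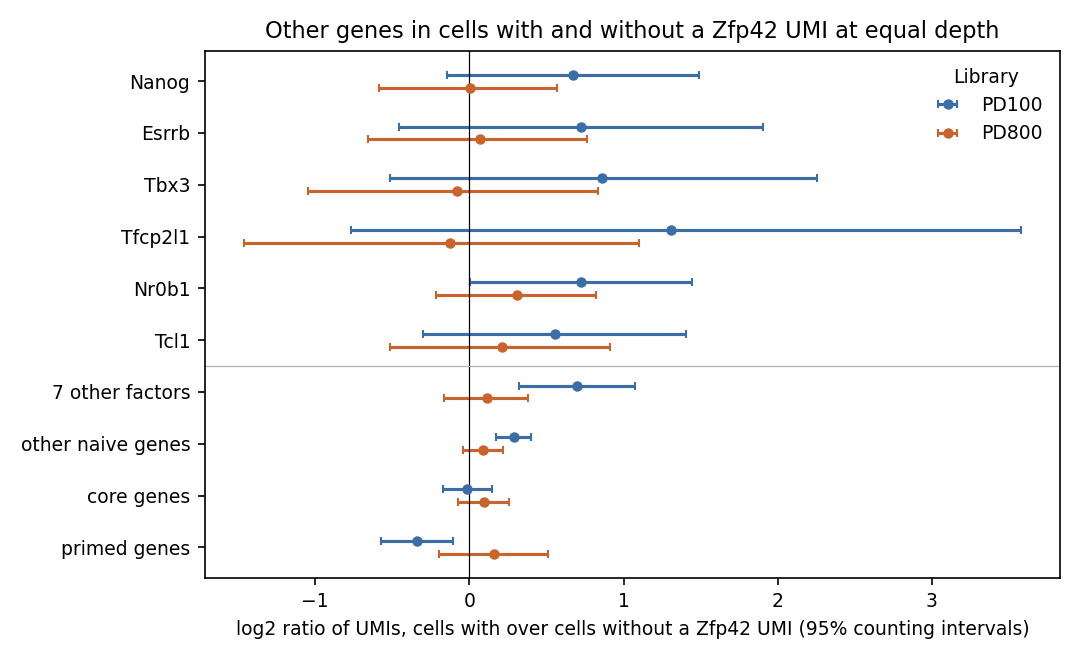
Log2 ratio of UMIs in cells with over cells without a Zfp42 UMI, after 1000 UMIs were drawn per cell and without the endoderm-like cells, with 95% counting intervals. In PD100 the 7 other factors together are at 0.70 and the primed list at -0.34, while the PD800 interval of every item shown includes 0.

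Pairs of factors were then counted. In full-depth cells without the endoderm-like ones, the 28 pairs were seen together 393 times in PD100, where 302 were due if factors were seen independently at each cell's depth (1.30 times). In PD800 they were seen together 1148 times, where 1184 were due (0.970 times). The PD100 count was above the number due for 22 of the 28 pairs, and the PD800 count for 12. At equal depth, with far fewer UMIs, the pairs were seen together 136 times where 99.0 were due in PD100 (1.37 times) and 239 times where 222 were due in PD800 (1.07 times). There 17 and 16 of the 28 pairs were above the number due, and no pair lay outside its interval in either library, so the contrast between the libraries is smaller in the number of pairs. Nanog and Zfp42 shared 67 PD100 cells (51.9 to 85.1) where 50.2 were due, and 157 PD800 cells where 164 were due. Put differently, 76.1% of PD100 cells with Nanog also had Zfp42, against 49.7% of those without Nanog, and in PD800 these shares were 66.8% and 63.3%. Cells with Nanog are deeper on average, which the numbers due account for and the shares do not. Esrrb and Nr0b1 shared 15 PD100 cells where 7.38 were due (8.40 to 24.7). Nanog and Esrrb shared 10 PD100 cells where 5.62 were due, and 42 PD800 cells where 51.1 were due, both within counting error. Nanog and Nr0b1 in PD800 were the only pair below its interval, with 52 shared cells (38.8 to 68.2) where 68.8 were due. These 3 pairs were picked out of 28 in each library for lying outside their intervals, which are not adjusted for that number.

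Across thinned cells, the genes most like the summed count of the 8 factors were sought by Pearson correlation of log2(count + 1), as a description over cells of 1 library that share their depth. In PD100 they were Dppa5a (0.15), a naive marker, Jam2 (0.15), Eif2s2 (0.14), Mnat1 (0.13) and Cdc37 (0.13), over 814 cells and 2752 genes. In PD800 they were Ntmt1 (0.12), Pfdn4 (0.11), Tdp1 (0.11), Bet1l (0.11) and Sumo3 (0.10), over 900 cells and 2622 genes. Dppa5a was at -0.003 in PD800, and the 50 most like genes of the libraries had 0 in common. Such values are weak, since 5% of all genes passed 0.067 in PD100 and 0.057 in PD800. Zfp42 gave 482 of the 726 factor UMIs in thinned PD100 cells and 441 of 921 in PD800, so the sum follows Zfp42 most. The PD100 cells included the 38 endoderm-like ones, in which Dppa5a was at 5307 CPM against 8841 in the whole library, and PD800 had 0 such cells. What these cells add to the PD100 values was not tested. The lowest values in PD100 were those of Sparc (-0.18), Krt18 and Col4a1 (both -0.15). Sparc and Col4a1 are on the endoderm marker list, and the summed factors were low in the endoderm-like cells. Krt18 is on a list of trophoblast markers, whose sum was 399 CPM in PD100 and 332 without the endoderm-like cells.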

How the data were processed

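Single-cell libraries were grouped into PD100 and PD800 by their labelled time point. The authors deposited raw UMI counts for each barcode and gene, obtained by running the inDrops pipeline on a transcriptome of GRCm38/mm10. The annotation release and the treatment of reads shared between gene copies are not given in the sources used here. The study's cell filter was applied, since the tables still held barcodes under it: 477 of 1291 PD100 and 766 of 1666 PD800 barcodes were left out.

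Counts were summed per library and scaled to counts per 1000000 (CPM). Sums were given exact Poisson, ratios exact conditional and shares exact Clopper-Pearson intervals at 95%. A gene needed 50 UMIs in the summed libraries for its ratio to be counted. A count of 0 was given a floor of 3 counts. Cells were thinned to 1000 UMIs with random seed 1. Co-detection was compared with the product of per-cell detection chances, each proportional to depth and set to the observed number of cells. Clusters used genes more variable than Poisson at a false discovery rate of 0.05, 80 principal components, 15 neighbours and Louvain clustering at resolution 1 (Scanpy 1.11.5, python-igraph 0.11.9), and were named from fixed markers. Scrublet called 14 PD100 and 8 PD800 doublets, and these were removed only in an alternative. Gene positions are from GENCODE annotation of GRCm38. All steps used SciPy 1.17.1, NumPy 2.4.6 and pandas 2.3.3 under Python 3.11.15 and were tested on simulated data.

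All 8 factors were named. Of the other lists, genes past 2-fold were named, at most 8 per list, and Klf4, and per library the 5 genes most like the factors. Genes of the lists that are given for cells with and without Zfp42, the 3 core genes and the marker genes at 0 fall outside that rule and were chosen with their values known. The members and lists were chosen with earlier results of these data known.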

Additional observations from a re-analysis of the deposited data

Results flagged for a closer look

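The barcodes that the cell filter left out, 477 in PD100 and 766 in PD800, enter only 1 alternative, in which no cell filter was set, and the factors were counted in them too. Summed over the 8 factors, 193 UMIs were found there in PD100 and 481 in PD800, for a log2 ratio of 0.42 (0.18 to 0.67), where the cells gave 0.27 (0.18 to 0.36). Of these, 5 and 50 were Nanog UMIs, with its log2 ratio at 2.43 (1.11 to 4.11). Nr0b1 had 19 and 93 UMIs, at 1.40 (0.68 to 2.19), and Tbx3 had 3 and 21 UMIs, at 1.91 (0.17 to 4.30). These values were noted because they lie above 0 in barcodes outside the main comparison. For Nanog, Nr0b1 and Tbx3 the intervals overlap those of the cells. Esrrb had 8 and 18 UMIs, at 0.28 (-0.997 to 1.69), and Zfp42 had 139 and 240, at -0.11 (-0.41 to 0.21).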

How the results depend on the processing

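Of 271 values recomputed under other settings, 210 moved by less than their counting error (for counts of genes, by at most 1.5 times), 54 moved further and 7 changed sign. The log2 ratios of Nanog (0.92 to 1.47), Esrrb (1.38 to 1.99), Tbx3 (0.87 to 1.63), Tfcp2l1 (0.53 to 1.15), Nr0b1 (0.51 to 1.05) and Tcl1 (0.56 to 1.10) stayed above 0 in all 9 alternatives. Those that changed only the scaling raised every log2 ratio by the same amount, so they could not have brought these values below 0. Only the alternatives that changed the cells used could have done so. Scaling by the median of ratios, or relative to the median gene, turned Zfp42 to 0.15 in both cases, the other naive genes to 0.27 in both, and moved the median of the factors to 1.02 in both. Scaling over all detected genes, added after the data were seen, gave 0.28 for Zfp42, 0.10 for Prdm14, 0.40 for the other naive genes and 1.15 for the median of the factors, with 6 factors past 2-fold, while cells with at least 2000 UMIs gave 1. The share of cells with any factor was 62.6% in PD100 and 84.0% in PD800 at 2000 UMIs per cell, 62.2% and 86.3% without thinning, and in PD800 62.8% with another draw and 63.5% without doublets. Co-detection against the plain product of shares, not corrected for each cell's depth, ran from 1.29 to 1.46 times in PD100 and from 1.00 to 1.13 times in PD800, where the depth-corrected value of the report was 0.970. The cause of these moves was not tested, beyond the scaling itself. No paired analysis was possible because each time point had 1 library. Depth limits the rarer factors most, Prdm14 and Tfcp2l1.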

Other observations

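Relatives of the factors were rarely counted. Esrra had 10 UMIs in PD100 and 22 in PD800, Esrrg 2 and 1, and Tfcp2, the closest relative of Tfcp2l1, 20 and 9. Nr0b2 had 4 UMIs in PD100 and 1 in PD800.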
